A study of Mus musculus with 32 samples.

Results

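The clustered protocadherins are cell-surface adhesion proteins encoded in 3 tandem gene arrays, alpha, beta and gamma, on mouse chromosome 18. The genes described here were every row of 5 expression tables whose symbol marks a member of these arrays, and 22 of the 17440 genes listed in any table were members. Read letter by letter, the naming rule takes only the symbols in which a digit directly follows the array's letter or C type, which gave 4 genes (Pcdhb22, Pcdhgc3, Pcdhgc4 and Pcdhgc5). The A-type and B-type gamma genes (Pcdhga and Pcdhgb followed by a digit) belong to the same arrays and were kept, so that 21 of the 22 members were gamma genes and 1 was a beta gene. GENCODE M21 annotates 58 such genes in all. No member of the 14 alpha genes was listed in the tables used here, 1 of 22 beta genes was, and of the gamma genes 11 of 12 A-type, 7 of 7 B-type and 3 of 3 C-type genes were.

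In neurons, each cell chooses a few alpha, beta and gamma genes from the arrays, and the proteins on the surface let branches of the same cell recognise one another. Each gamma gene begins with its own promoter and large variable exon, which encodes the extracellular and membrane-spanning parts, and is spliced to constant exons shared by the whole gamma array, which encode the common cytoplasmic tail. CTCF, a DNA-binding protein that stops loop extrusion by cohesin, binds at most of the variable promoters and at distant enhancers, and RAD21 is a core subunit of cohesin. The C-type genes are expressed more widely than the A and B types in neurons, and the promoters of Pcdhgc4 and Pcdhgc5 lack the conserved sequence element at which CTCF binds in the other gamma promoters.

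The study used RNA-seq of E14 mouse embryonic stem cells, in 32 libraries that form 16 groups of 2. CTCF AID cells, in which endogenous CTCF carries an auxin-inducible degron, received the auxin indole-3-acetic acid (IAA) for 0, 12 or 24 h. RAD21 AID cells received the related auxin 5-Ph-IAA, at a lower dose, for 0, 12 or 24 h. CTCF AID cells labelled serum were sampled at 0 and 12 h of IAA. CTCF AID cells with an overexpressed control construct, wild type CTCF or mutated CTCF were sampled without IAA and with IAA for 12 h. Further CTCF AID cells, for which the labels give no IAA, carried a control hairpin or a hairpin against Chd4, the ATPase of the NuRD chromatin-remodelling complex. All groups except the RAD21 AID groups thus carry the CTCF degron, including their untreated controls. The labels do not say which residues of CTCF were mutated, which promoter drives the constructs, whether a line is 1 clone, or whether replicates came from separate cultures, so p-values measure only the spread between these libraries, which may be technical. The description of culture gives a medium without serum for every library, including the 4 labelled serum.

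Titles and treatment labels contradict each other in 4 libraries. Both libraries titled mutated CTCF without IAA bear a 12 h treatment label, and both titled wild-type CTCF with IAA bear the label of untreated cells. Groups follow the titles. If the treatment labels were followed, neither construct would have both a treated and an untreated group, so each IAA comparison within these constructs rests on the titles. The degron acts on the protein, so the Ctcf transcript does not check the degradation, but its level moved both with the construct and with IAA. It was 4134 and 4332 in the control libraries without IAA, 9275 to 11631 in the 4 libraries titled wild-type CTCF, and 9589 to 11758 in the 4 titled mutated CTCF. With IAA as in the titles it was higher by 0.28 on the log2 scale in control, wild-type and mutated CTCF cells (0.281, 0.275 and 0.275; adjusted p = 0.000112, 0.000221 and 0.000292, limma), and it was higher by 0.29 at 12 h in the parent line and by 0.33 in serum.

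Values are the authors' normalised counts, which sum to between 15364584 and 19642332 a library, and each table was normalised on its own. Tests were therefore made only within a table. A table lists only genes whose second-highest library reaches a minimum (4.47 to 6.86 by table), and a gene was tested if its mean over all libraries of its table was at least 10. A member that is high in only 1 group can thus be listed or tested through that group, so counts over the listed or tested members are descriptions. Tests of members that fall to near 0 in the treated libraries, or that reach the mean of 10 only through 1 group, are descriptions too. Of the members, 19 were listed for CTCF AID cells, 17 for RAD21 AID cells, 20 for serum, 19 for the constructs and 18 for the hairpins, and the numbers tested were 12, 14, 16, 15 and 16. Differences are on the scale log2(value + 1), which understates the change of low genes. They were tested with limma across all genes of a table, and "called" means a Benjamini-Hochberg adjusted p under 0.05. In bulk RNA, fewer cells that transcribe a gene and less RNA per cell cannot be told apart.

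On GRCm38 (mm10), the gamma array spans chr18:37661793-37841873 on the plus strand. Its 3 constant exons lie at its distal end, from 37825021 to 37841873, and have 59, 89 and 1971 bases. The variable exons start 163.2 kb (Pcdhga1, ENSMUSG00000103144) to 5.5 kb (Pcdhgc5) before the first constant exon. Every gamma gene model includes the constant exons, and some models also share exonic bases with another member outside them, as in Pcdhga4 and Pcdhgb1. In all, 27.8% to 66.8% of a gamma member's exonic bases also belong to other members, and how reads in them were divided among the genes is not known. Counting by strand is not stated, and antisense genes that the tables list overlap exons of Pcdhga10, Pcdhgb7, Pcdhga11 and Pcdhga12 (Gm26672) and of Pcdhgc3 (BC037039). Antisense genes that the tables do not list overlap exons of Pcdhga1 (Gm37118) and of Pcdhga7 and Pcdhga8 (Gm37165). In the tables that list it, Gm26672 lay between 3.77 and 39.7 normalised counts in every library, and BC037039 did not exceed 35.8. The part of these transcripts in the members' values was not tested. Pcdhgb8 is annotated as a polymorphic pseudogene.

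In untreated cells, the C-type genes Pcdhgc3 and Pcdhgc4 were the most abundant members. Per kilobase of exon, the mean level of Pcdhgc4 at 0 h in CTCF AID cells was 119.8 normalised counts (libraries 117 to 122.7) and that of Pcdhgc3 was 95.5 (93.1 to 98.0). The next levels per kilobase were those of Pcdhga12, at 25.5, and Pcdhga11, at 19.0, whose libraries did not overlap, and the remaining members ran from 14.7 for Pcdhga10 down to 1.67 for Pcdhgb1. The third C-type gene, Pcdhgc5, was near the bottom, at 1.91. Pcdhgc3 and Pcdhgc4 held the top places in all 5 untreated control groups. Their order was the opposite in the control construct cells, where the libraries of Pcdhgc3 (147.4 to 182.5 per kilobase) and Pcdhgc4 (145.4 to 158.4) overlapped. The A and B genes together made up 35.9% ± 0.516 (SD, n = 2) of the gamma total in CTCF AID cells at 0 h, 28.4% ± 1.38 in RAD21 AID cells, 56.1% ± 1.35 in serum, 26.8% ± 1.78 with the control construct and 24.4% ± 0.724 with the control hairpin. Serum was the only untreated group in which the A and B genes exceeded the C genes, and the difference between tables was not tested.

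The only beta gene listed was Pcdhb22 (chr18:37517871-37524479), the last gene of its array. It was listed in CTCF AID cells alone, at 21.9 and 9.08 normalised counts at 0 h and at 0 in all 4 libraries with IAA. Its mean was under the minimum for testing, and it is listed only through the 0 h libraries, so these values are a description. The other 21 beta genes and all 14 alpha genes are not analysed here.

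The first question was what happens to the array when CTCF is degraded. In CTCF AID cells the A and B genes fell steeply, while none of the 3 C genes was lower by the test. All 15 listed A and B genes had a lower mean at 12 h than at 0 h, against 50.5% of all listed genes, and their median was 14.6% of the untreated mean. Several of them, among them Pcdhga3, Pcdhga4 and Pcdhga7, are listed only through their 0 h libraries. Counts and medians over the members are therefore descriptions, here and at 24 h. Of 12 members tested at 12 h, 7 were lower and 1 was higher by limma, where 17.8% of all tested genes were called in either direction (8.4% lower and 9.39% higher). At 24 h all 15 means were again below 0 h, against 49.8% of all listed genes, and 8 of 12 members were lower and none was higher, where 22.5% of all tested genes were called (10.8% lower). The 7 genes lower at 12 h were Pcdhga1, Pcdhga2, Pcdhga7, Pcdhga8, Pcdhga10, Pcdhgb8 and Pcdhga12, and Pcdhga11 joined them at 24 h.

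**Figure D1:**
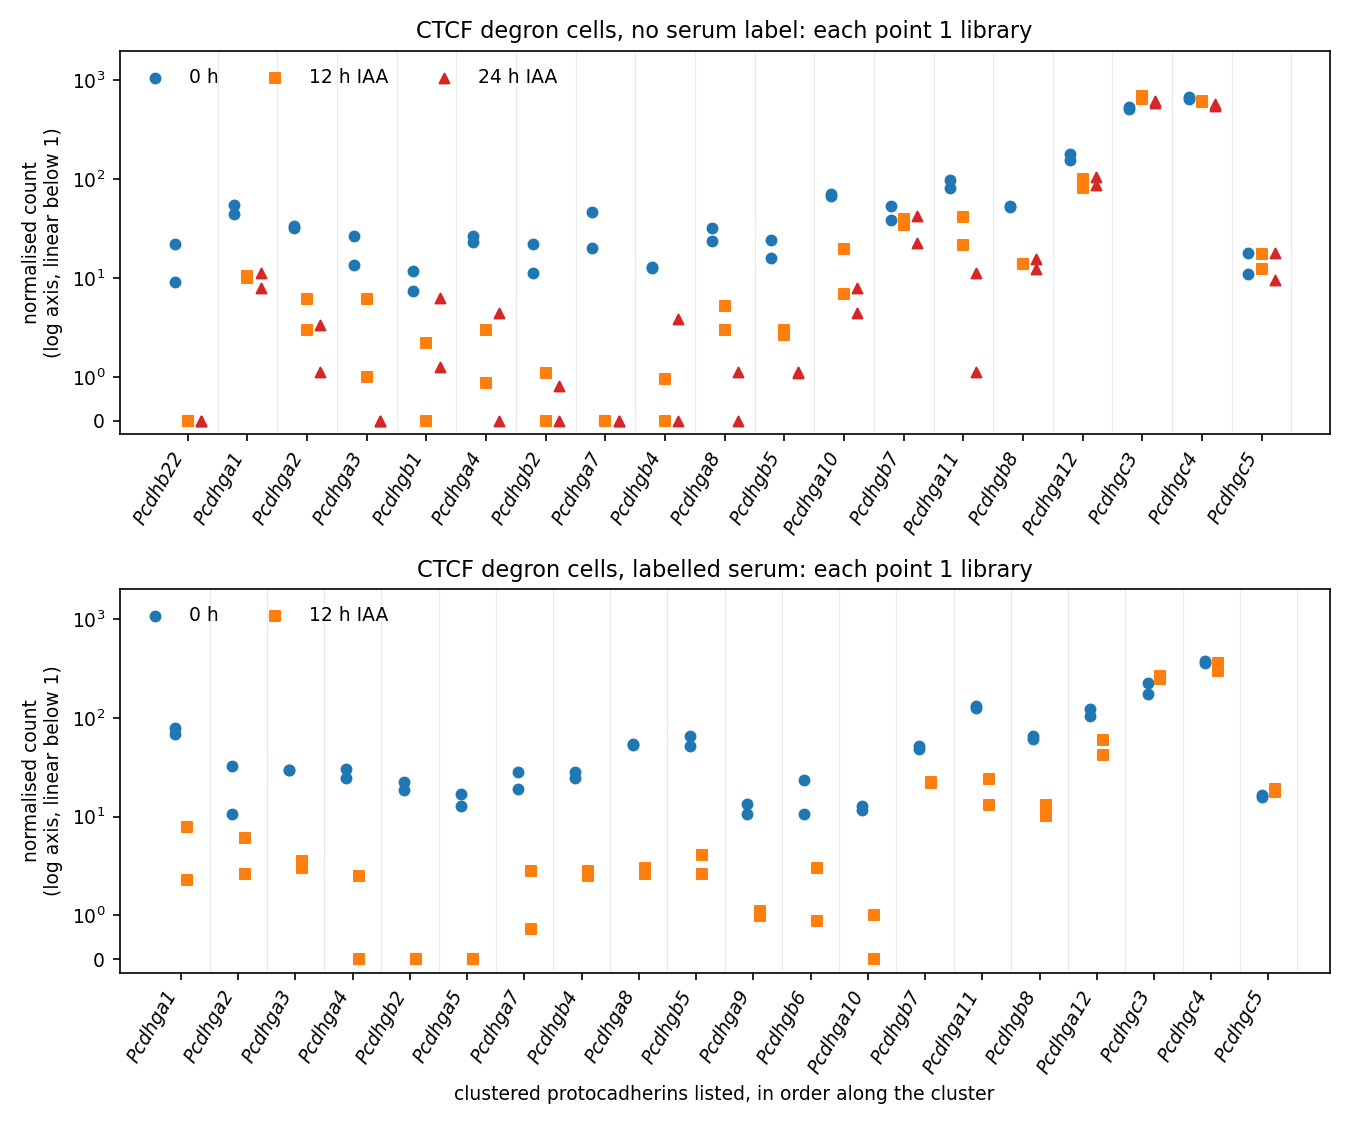
Normalised counts of every listed member in CTCF AID cells (top: 0, 12 and 24 h of IAA) and in CTCF AID cells labelled serum (bottom: 0 and 12 h), on a log axis that is linear below 1, with members in order along the array and each point 1 library. Most A and B genes drop towards 0 with IAA, whereas Pcdhgc3, Pcdhgc4 and Pcdhgc5 at the right do not, and Pcdhgc3 is higher at 12 h.

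Pcdhga1, the first gene of the array, stood at 54.4 and 44.8 at 0 h, at 9.94 and 10.4 at 12 h and at 7.88 and 11.2 at 24 h. The treated libraries did not overlap the untreated ones, and the log2 difference was -2.17 ± 0.368 (SE) at 12 h (adjusted p = 0.00868, limma) and -2.27 at 24 h (adjusted p = 0.00580). Without its 0 h libraries Pcdhga1 would not reach the minimum mean of 10, so its calls are descriptions. Pcdhga7 was at 20.2 and 46.8 at 0 h and listed at 0 in all 4 treated libraries. It passed the minimum for testing only through its 0 h libraries, and its fitted difference is set by the added 1, so its calls are a description.

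Pcdhga2 had 32.4 and 33.4 at 0 h, 2.98 and 6.09 at 12 h and 1.12 and 3.35 at 24 h (log2 difference -2.67 and -3.48, adjusted p = 0.0217 and 0.00681, limma). Pcdhga8 went from 32.4 and 23.8 to 2.98 and 5.22 at 12 h and to 1.12 and 0 at 24 h, a log2 difference of -2.53 and then -4.30 (adjusted p = 0.0354 and 0.00408, limma). Pcdhga2, Pcdhga8 and Pcdhga10 passed the minimum for testing only through their 0 h libraries, so their calls are descriptions. Pcdhga10 had 68.0 and 71.2 at 0 h, 19.9 and 6.96 at 12 h and 7.87 and 4.47 at 24 h. Every treated library of these 3 A-type genes was below every untreated one.

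The last A-type and B-type genes before the constant exons were also lower. Pcdhgb8, the last B-type gene, was at 52.3 and 53.7 at 0 h, at 13.9 in both 12 h libraries and at 15.7 and 12.3 at 24 h (log2 difference -1.85 ± 0.320 (SE) at 12 h, adjusted p = 0.00920, limma). Pcdhga12, the last A-type gene and the most abundant of the A and B genes, was at 182.3 and 157.9, then 100.4 and 82.6, then 106.6 and 88.1. Its groups did not overlap and its log2 difference was -0.89 ± 0.193 (SE) at 12 h (adjusted p = 0.0212, limma), the smallest fall among the 7 called lower.

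Pcdhga11 and Pcdhgb7, which lie just before Pcdhgb8, behaved unlike each other. Pcdhga11 was at 99.4 and 80.9 at 0 h, at 41.8 and 21.7 at 12 h and at 11.2 and 1.12 at 24 h, and passed the test only at 24 h (log2 difference -4.16 ± 0.777 (SE), adjusted p = 0.0101, against -1.54 and adjusted p = 0.223 at 12 h, limma). Pcdhgb7 was at 53.4 and 38.7, then 34.8 and 40.0, then 22.5 and 42.4. Its treated and untreated libraries overlapped at both times, and the 95% interval of its log2 difference at 12 h ran from -1.14 to 0.58 (adjusted p = 0.653, limma).

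The remaining A and B genes were too low to be tested. Pcdhga3, Pcdhga4, Pcdhgb2, Pcdhgb4 and Pcdhgb5 had untreated means of 12.8 to 24.7 and 12 h means of 0.479 to 3.54. They are listed only through their 0 h libraries, so these values are a description. Pcdhgb1 went from 11.8 and 7.44 to 0 and 2.21 at 12 h and to 6.35 and 1.26 at 24 h. With no minimum, 13 of 19 members were called at each time, where 17.2% of all genes were called at 12 h and 21.8% at 24 h.

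The C-type genes took another course. Pcdhgc3 was at 538.8 and 511.8 at 0 h and at 650.6 and 689.4 at 12 h, higher in both treated libraries, with a log2 difference of 0.35 ± 0.083 (SE, adjusted p = 0.0283, limma). At 24 h it was at 624.7 and 589.3 and did not pass the test (adjusted p = 0.117). Pcdhgc4 was at 686.8 and 654.5, then 618.7 and 609.7, then 555.8 and 576.5. Its treated libraries were all lower, but its log2 differences of -0.13 and -0.24 missed the threshold (adjusted p = 0.306 and 0.0612, limma). Pcdhgc5 stayed between 9.68 and 18.1 in all 6 libraries, and the groups overlapped.

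No member differed between 24 h and 12 h of IAA by limma, where 0.146% of all tested genes were called and 2 of 12 members had an unadjusted p under 0.05. The number of calls depended on single libraries. Leaving out 1 of the 4 libraries at a time left 0 members called at 12 h without the first 0 h library, 1 without the second, and 2 and 3 without the first and second 12 h libraries. Over all genes, these fits called 1005 to 1119 genes at 12 h, against 2438 with all libraries. At 24 h, 1 and 2 members were called without the first and second 0 h library. Without either 24 h library 8 were called, but without the second these did not include Pcdhga12 and did include Pcdhga4. Pcdhga2, Pcdhga7 and Pcdhga8 fell under the minimum for testing without either 0 h library. Every called difference that could be refitted had the same sign in these fits.

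Distance from the constant exons ran alongside the share of the level that remained. Across the 15 listed A and B genes, Spearman's rho between distance and the percent of the untreated mean left at 12 h was -0.54, and rho between the untreated level and that percent was 0.72. Distance and untreated level were themselves related (rho = -0.57). These are descriptions across genes that share libraries and constant exons, and their parts were not told apart. The 4 A and B genes closest to the constant exons, Pcdhgb7, Pcdhga11, Pcdhgb8 and Pcdhga12, singled out after their values were seen, kept 81.3%, 35.2%, 26.3% and 53.8% of their level at 12 h. The highest share among the others was 20.5%, in Pcdhga1, the farthest gene of all. At 24 h rho with distance was -0.33. Between 12 and 24 h the near gene Pcdhga11 went from 35.2% to 6.85% of its untreated mean and the far gene Pcdhgb1 from 11.5% to 39.5%, and the part of single genes in rho was not tested.

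**Figure D2:**
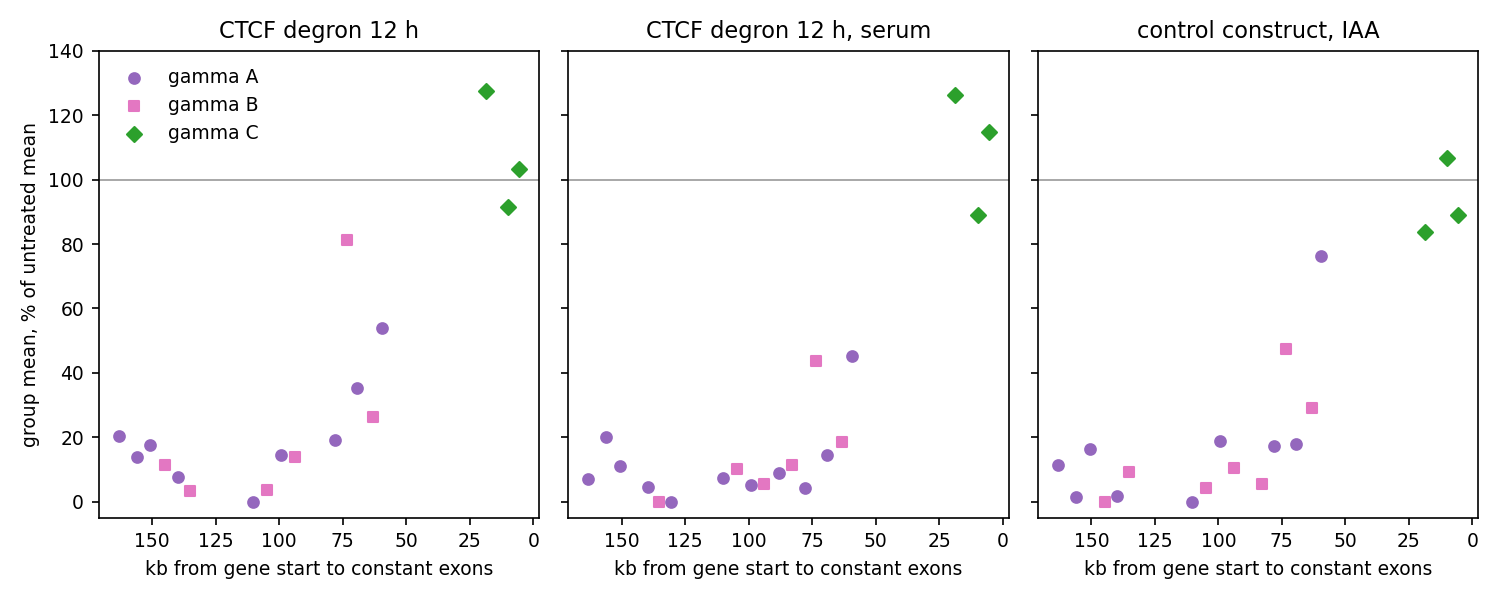
Group mean after IAA as a percent of the untreated mean (vertical axis) against the distance in kb from each gene's start to the first constant exon (horizontal axis, constant exons at the right), for CTCF AID cells at 12 h, the same in serum, and control construct cells with IAA, each point 1 gamma gene. The C genes lie between 83.8% and 127.5%, and the A and B genes lie lower, with the highest values among those nearest the constant exons.

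In cells labelled serum, CTCF degradation for 12 h was again followed by a fall of the A and B genes. All 17 listed A and B genes had lower means than at 0 h, against 50.1% of all listed genes, with a median of 8.80% of the untreated mean. Most of them are listed only through their untreated libraries, so counts and the median over the members are descriptions here too. Of 16 members tested, 12 were lower and none was higher by limma, where 17.0% of all tested genes were called (9.25% lower). Serum was not tested against the other medium. Leaving out 1 library at a time left 10 or 11 calls.

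Pcdhga11, at 126.4 and 130.4 without IAA, was at 13.1 and 23.8 with it, a log2 difference of -2.79 ± 0.295 (SE, adjusted p = 0.00110, limma). Pcdhga8 went from 54.2 and 53.0 to 3.03 and 2.64 (log2 difference -3.83, adjusted p = 0.000589), and Pcdhgb5 from 52.3 and 66.1 to 4.06 and 2.60 (-3.81, adjusted p = 0.000743, limma). Pcdhga1 went from 68.3 and 78.0 to 2.30 and 7.94 (-3.77, adjusted p = 0.00263, limma). In these 4 genes each treated library held less than any untreated one by a wide margin. Pcdhga1, Pcdhga8 and Pcdhgb5 passed the minimum for testing only through their untreated libraries, so their calls are descriptions. Gm26672, antisense to Pcdhga11, was at 14.4 and 15.2 without IAA and at 7.54 and 8.70 with it, and its part in the values was not tested.

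Pcdhgb2 was at 22.6 and 18.6 without IAA and listed at 0 in both treated libraries (adjusted p = 0.00286, limma). Pcdhga3, Pcdhga4, Pcdhga7, Pcdhgb4 and Pcdhgb8 were also lower, with 4.61% to 18.6% of the untreated mean left. Pcdhgb2, Pcdhga3, Pcdhga4, Pcdhga7 and Pcdhgb4 passed the minimum for testing only through their untreated libraries, so their calls are descriptions. Pcdhga12 and Pcdhgb7 kept the most, 45.1% and 43.8%, and both still passed the test (log2 difference -1.15 in each, adjusted p = 0.0135 and 0.0190, limma). Pcdhgb7 lost its call in 3 of the 4 fits that left out a library, and Pcdhga12 in 1. Pcdhga2 did not pass, at 10.6 and 32.9 without IAA and 6.05 and 2.64 with it (adjusted p = 0.0753, limma). Of the members too low to be tested, Pcdhga10 went from 12.7 and 11.7 to 1.01 and 0, and Pcdhga5, Pcdhga9 and Pcdhgb6, grouped here after their values were seen, had means of 11.9 to 17.0 without IAA and of 0 to 1.95 with it.

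The 3 C genes were again apart from the rest. Pcdhgc4 was at 356.4 and 375.8 without IAA and at 295.6 and 355.4 with it, and Pcdhgc3 at 227.4 and 174.9 and then 262 and 246.3. Neither passed the test (adjusted p = 0.328 and 0.148, limma), and Pcdhgc5 (16.5 and 15.8, then 17.9 and 19.2) did not either (adjusted p = 0.728).

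The cells with constructs asked whether CTCF supplied from outside keeps the members at their level when endogenous CTCF is degraded. In control construct cells, IAA was followed by a fall of the A and B genes: 11 of 15 members tested were lower and none was higher by limma, where 25.3% of all tested genes were called (12.5% lower). All 16 listed A and B genes had lower means, against 50.1% of all listed genes. With wild-type CTCF no member was called (limma; 0 of 15 at an unadjusted p under 0.05), where 21.4% of all tested genes were. With mutated CTCF 2 were lower, Pcdhga1 and Pcdhgb8, where 16.2% of all tested genes were called (7.92% lower). Pcdhga1, Pcdhga7, Pcdhga8 and Pcdhgb8 were called lower in the control construct cells, in serum and at both times in the parent line, out of 11 members tested in all 4 comparisons. Over all genes tested in all 4, 1.98% were called lower in each. The 12 h and 24 h comparisons of the parent line share their 0 h libraries. In the parent line and in serum, Pcdhga1, Pcdhga7 and Pcdhga8 passed the minimum for testing only through untreated libraries. The number of shared calls is therefore a description.

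**Figure D3:**
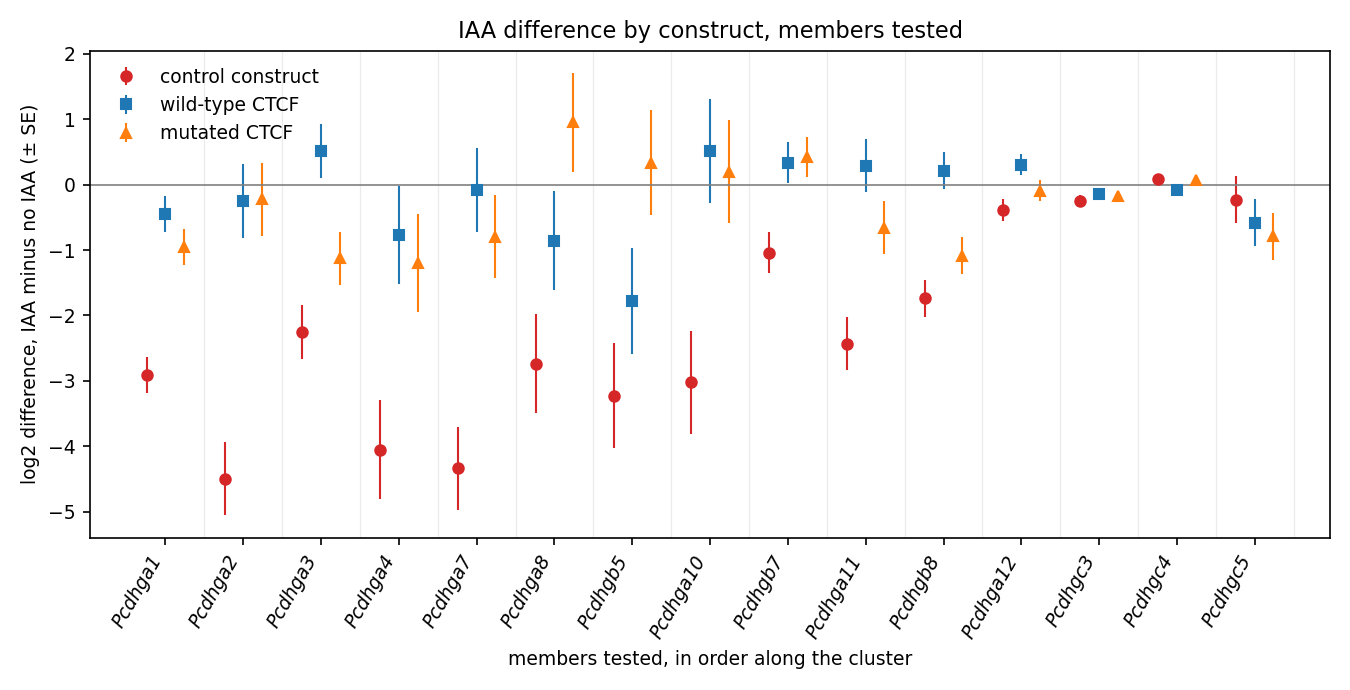
Log2 difference between IAA and no IAA (points, with bars for ± SE from the limma fit; 2 libraries a group) for each of the 15 members tested, in control construct cells, cells with wild-type CTCF and cells with mutated CTCF. The control points of most A and B genes lie between -5 and -1, and those of both CTCF constructs lie mostly near 0.

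Pcdhga2 differed in response with both constructs. In control construct cells it was at 43.6 and 20.9 without IAA and at 0.921 and 0 with it, a log2 difference of -4.50 ± 0.562 (SE, adjusted p = 0.000212, limma). With wild-type CTCF it was at 42.4 and 13.1 without IAA and at 18.4 and 21.5 with it, and with mutated CTCF at 30.5 and 27.2 and then 25.2 and 23.9. The libraries of the wild-type CTCF groups overlapped, and with mutated CTCF both IAA libraries lay slightly below those without. The difference in the IAA response between the wild-type and control constructs was 4.25 (SE 0.795, adjusted p = 0.0264, limma), and between the mutated and control constructs 4.27 (adjusted p = 0.0219). Neither difference was called with pseudocount 5.

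Pcdhga1 was at 62.8 and 43.6 in control construct cells and at 6.72 and 5.46 after IAA (log2 difference -2.92 ± 0.276 (SE), adjusted p = 3.23e-05, limma). With wild-type CTCF it was at 53.4 and 50.0 and then at 33.0 and 42.5, lower in both libraries but not past the threshold (-0.45, adjusted p = 0.275). With mutated CTCF it was at 67.4 and 88.2 and then at 38.0 and 40.5, and this fall passed (-0.96 ± 0.276 (SE), adjusted p = 0.0380, limma). It lost the call in each of the 4 fits that left out 1 library (adjusted p = 0.0648 to 0.213), with a replicate block, and with only the mutated CTCF libraries in the fit. The level left was 11.4% of the untreated mean with the control construct, 73.1% with wild-type and 50.5% with mutated CTCF, and the response differed from control by 2.46 for wild-type CTCF (adjusted p = 0.0111) and by 1.96 for mutated CTCF (adjusted p = 0.0328, limma).

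Pcdhga7 was at 25.0 and 14.8 in control construct cells and listed at 0 in both after IAA, as in the parent line. It was at 13.4 and 12.2, then 12.9 and 11.2, with wild-type CTCF, and at 12.2 and 21.4, then 3.90 and 19.1, with mutated CTCF. Pcdhga11 was at 91.6 and 119.4 in control cells and at 22.1 and 15.6 after IAA, while with wild-type CTCF it was at 107.6 and 62.2 and then 84.3 and 119.2. With mutated CTCF the libraries of Pcdhga11 were spread, at 140.9 and 86.9 without IAA and 47.1 and 102.9 with it.

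Pcdhgb8 went from 60.2 and 79.6 to 23.9 and 16.7 in control cells (log2 difference -1.74 ± 0.289 (SE), adjusted p = 0.00133, limma). With wild-type CTCF it stayed at 72.4 and 48.0 and then 67.6 and 69.8, and with mutated CTCF it fell from 71.4 and 64.1 to 37.4 and 26.4 (-1.08 ± 0.289 (SE), adjusted p = 0.0271, limma). That fall lost its call in 3 of 4 fits that left out 1 library and with only the mutated CTCF libraries in the fit. Compared directly, mutated CTCF with IAA was lower than wild-type CTCF with IAA in both libraries of Pcdhgb8, but the log2 difference of -1.10 missed the threshold (adjusted p = 0.0838, limma). No member was called in that comparison (1 of 15 had an unadjusted p under 0.05), where 2.25% of all tested genes were.

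Pcdhga3, Pcdhga4, Pcdhga8, Pcdhga10, Pcdhgb5 and Pcdhgb7 were the other members lower in control construct cells, with 1.89% to 47.5% of the untreated mean left. Pcdhga12 kept 76.4% (187.9 and 176.9, then 147.5 and 131.2) and was not called (adjusted p = 0.110, limma). No C gene was called for IAA with any construct when all libraries were used, although Pcdhgc3 was called lower in control construct cells without the second untreated control library. Pcdhgc3 was at 1003.4 and 810.5 in control cells and at 739.2 and 781.4 after IAA, Pcdhgc4 at 886.5 and 813.6 and then 959.4 and 854.7. Leaving out 1 of the 4 libraries of the IAA comparison in control construct cells gave 8 to 10 called members.

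In the test of the difference in response itself, 6 members had a higher response with wild-type CTCF than with the control construct (Pcdhga1, Pcdhga2, Pcdhga3, Pcdhga7, Pcdhga11 and Pcdhgb8), where 1.41% of all tested genes were called in either direction (1.1% higher). With mutated CTCF 2 did (Pcdhga1 and Pcdhga2), where 1.64% were (1.05% higher). At an unadjusted p under 0.05 the numbers were 10 and 9 of 15. Both tests share the control construct libraries. They also depended on single libraries: leaving out 1 of 8 libraries at a time left 0 to 4 members for wild-type CTCF and 0 to 2 for mutated CTCF, and both counts were 0 without the first control library without IAA. The count for wild-type CTCF was also 0 without its second IAA library, and that for mutated CTCF without either of its libraries without IAA or without its second IAA library. Without IAA, no member differed between wild-type CTCF and control (limma; 0 of 15 unadjusted; 0.897% of all tested genes called) or between mutated CTCF and control (1 of 15 unadjusted; 5.55%).

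Degradation of RAD21 gave another picture. No member was called at 12 h (limma; 2 of 14 at an unadjusted p under 0.05), where 13.0% of all tested genes were, and none at 24 h (1 of 14 unadjusted), where 13.7% were. None was called between 24 h and 12 h either (0 of 14 unadjusted), where 15.9% of all tested genes were. Of the 14 listed A and B genes, 9 had a lower mean at 12 h and 7 at 24 h, against 50.4% and 50.2% of all listed genes. RAD21 AID and CTCF AID cells were in separate tables and differed in auxin and dose, so the difference between their responses was not tested.

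Pcdhga7, at 0 after CTCF degradation, was at 11.3 and 16.9 at 0 h in RAD21 AID cells, at 13.5 and 19.1 at 12 h and at 23.0 and 15.3 at 24 h. These libraries overlapped, and the 95% interval of the log2 difference at 12 h ran from -0.83 to 1.22. Pcdhga11 was at 49.9 and 52.8, then 42.2 and 61.6, then 60.6 and 33.6, with an interval from -0.82 to 0.80 at 12 h. Pcdhgb8 was at 51.6 and 47.2, then 36.6 and 50.9, then 57.3 and 44.5, with an interval from -0.84 to 0.46 at 12 h. For each of these 3 genes the treated and untreated libraries overlapped at both times.

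Pcdhga1 and Pcdhga4 had the lowest adjusted values among the A genes. Pcdhga1 was at 43.8 and 57.6 at 0 h, at 25.7 and 39.1 at 12 h and at 24.9 and 28.4 at 24 h. All 4 treated libraries were below both untreated ones, with log2 differences of -0.65 and -0.90 that missed the threshold (adjusted p = 0.227 and 0.115, limma). The 95% interval at 24 h, -1.65 to -0.14, did not include 0. Pcdhga4 was at 46.4 and 70.8, then 33.2 and 30.3, then 44.8 and 43.7 (adjusted p = 0.102 at 12 h and 0.433 at 24 h, limma). Pcdhgb7 was at 21.4 and 36.0, then 18.8 and 7.83, then 11.0 and 29.7 (adjusted p = 0.271 at 12 h, limma). Pcdhga2, too low to be tested, had the lowest share of its untreated mean at 12 h, with 9.80 and 11.2 at 0 h and 5.63 and 2.94 at 12 h. Pcdhga12 ran from 73.6 to 110.7 over the 6 libraries, with overlap at both times.

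Among the C genes, Pcdhgc3 was at 395.5 and 445.9 at 0 h, at 370.9 and 317.1 at 12 h and at 363.5 and 361 at 24 h, below the untreated libraries at both times and short of the threshold (adjusted p = 0.149 and 0.270, limma). Pcdhgc4 was at 667.4 and 661.7, then 578.1 and 693.5, then 609.7 and 568.9, below both untreated libraries at 24 h (adjusted p = 0.305, limma). Pcdhgc5 was higher in all 4 treated libraries, at 28.9, 27.9, 30.2 and 30.6 against 13.4 and 21.6, again without passing the test (log2 difference 0.71 and 0.80, adjusted p = 0.223 and 0.177, limma).

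**Figure D4:**
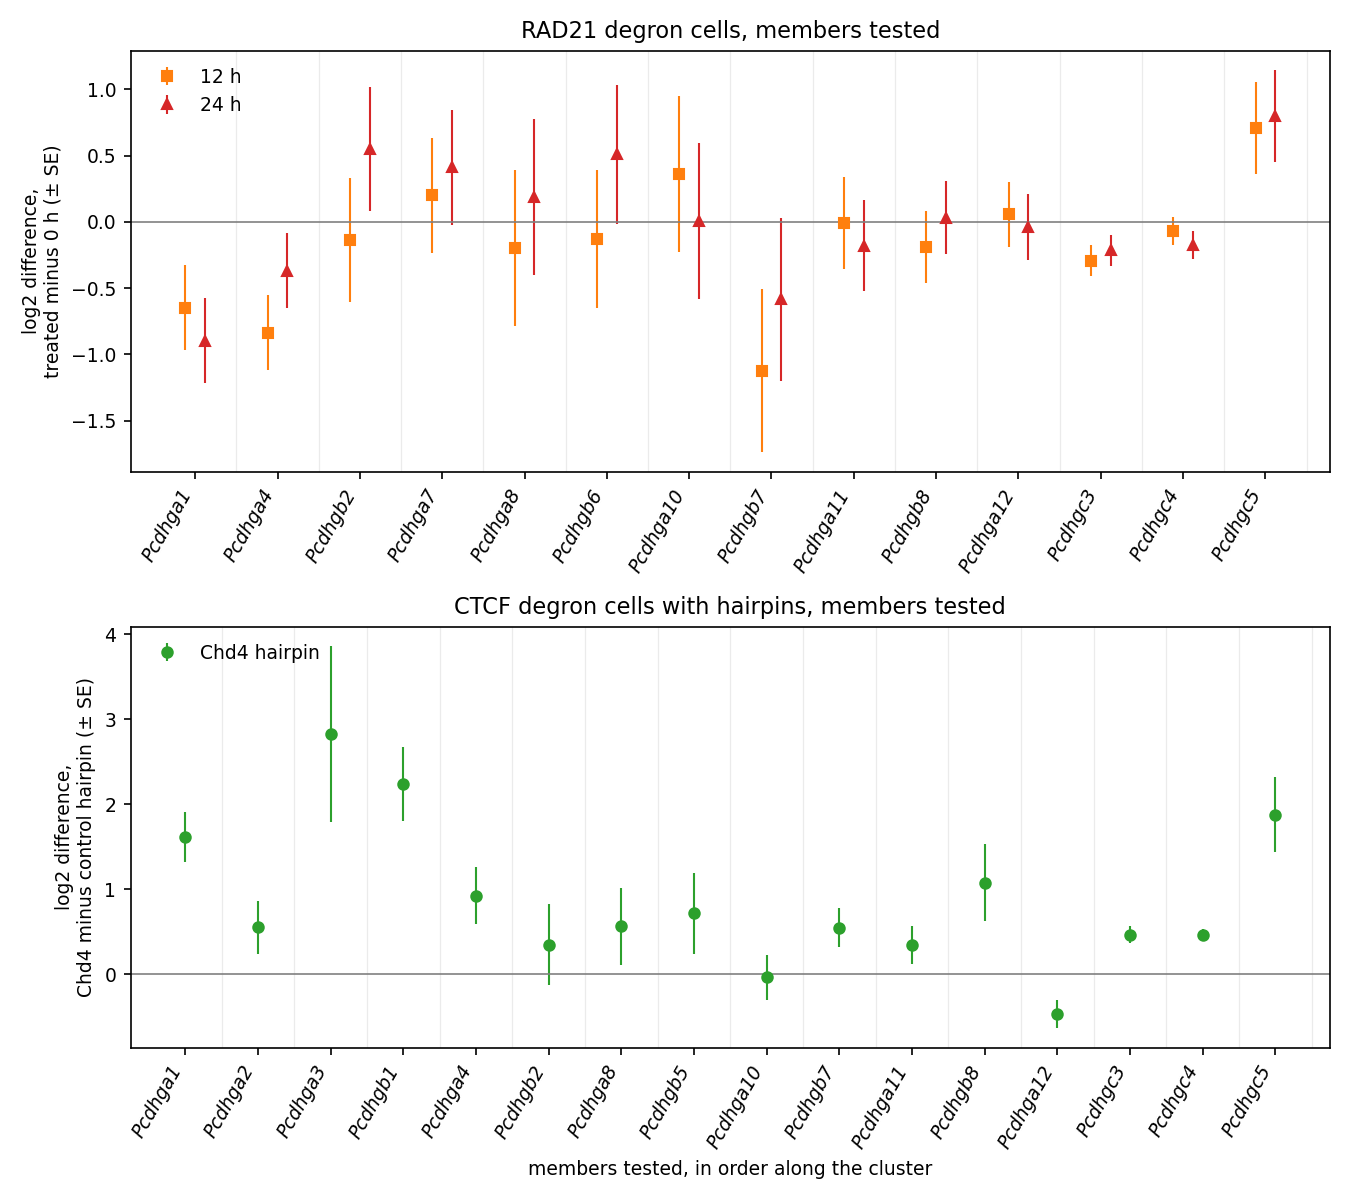
Log2 differences (points, with bars for ± SE from the limma fit; 2 libraries a group) for each member tested in RAD21 AID cells at 12 and 24 h of auxin against 0 h (top) and in cells with the Chd4 hairpin against the control hairpin (bottom). RAD21 points lie on both sides of 0, and 14 of the 16 hairpin points lie above it.

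With the hairpin against Chd4, the 3 C genes and several A and B genes were higher. The targeted transcript was at 9923 and 9526 in control hairpin cells and at 3379 and 3729 in Chd4 hairpin cells. Of 16 members tested, 7 were higher and 1 was lower by limma, while 67.4% of all tested genes were called in this comparison. The shares of all tested genes called higher and lower were 33.5% and 33.8%, so calls were common throughout the table. Among the 15 listed A and B genes 12 had a higher mean, against 52.3% of all listed genes.

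All 3 C genes rose. Pcdhgc4 stood at 926.5 and 1025.9 in control hairpin cells and at 1315.3 and 1364.4 in Chd4 hairpin cells (log2 difference 0.46 ± 0.072 (SE), adjusted p = 0.00126, limma). Pcdhgc3 was at 495.4 and 542.1 and then at 671.7 and 761.5 (0.46, adjusted p = 0.00433, limma). Pcdhgc5, low in every other group, was at 16.1 and 25.4 and then at 117.5 and 50.3, a log2 difference of 1.88 ± 0.441 (SE, adjusted p = 0.00802, limma). Both treated libraries of each C gene were above both controls, in a comparison where 67.4% of all tested genes were called. The share of all genes with such separation is not given here.

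At the far end of the array, Pcdhga1 rose from 28.4 and 18.4 to 67.0 and 77.3 (log2 difference 1.61 ± 0.294 (SE), adjusted p = 0.00254, limma). Pcdhga4 rose from 14.6 and 20.1 to 28.5 and 38.7 (0.92, adjusted p = 0.0444), and Pcdhga3 from 10.1 and 0 to 25.8 and 19.8 (2.82, adjusted p = 0.0461, limma). Pcdhgb1, named here because it was called, rose from 2.76 and 3.30 to 15.4 and 20.7 (2.23, adjusted p = 0.00349, limma). Pcdhgb1 and Pcdhga3 passed the minimum for testing only through the Chd4 hairpin libraries, so their calls are descriptions. Pcdhga12 was the only member called lower, from 168.2 and 209 to 143.2 and 126.7 (-0.47 ± 0.166 (SE), adjusted p = 0.0387, limma). Pcdhga12 and Pcdhga4 each lost the call in 3 of 4 fits that left out 1 library.

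Pcdhga10 (43.6 and 35.4, then 41.4 and 35.4) and Pcdhga11 (64.9 and 83.7, then 83.7 and 105.5) did not pass the test, and neither did Pcdhgb7 or Pcdhgb8 (adjusted p = 0.0722 and 0.0742, limma). Without either Chd4 hairpin library fewer members were called, and so were fewer of all tested genes. Without the first or second control library more members were called, with Pcdhga7 among them in both fits and Pcdhga4 or Pcdhga12 no longer called.

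**Figure D5:**
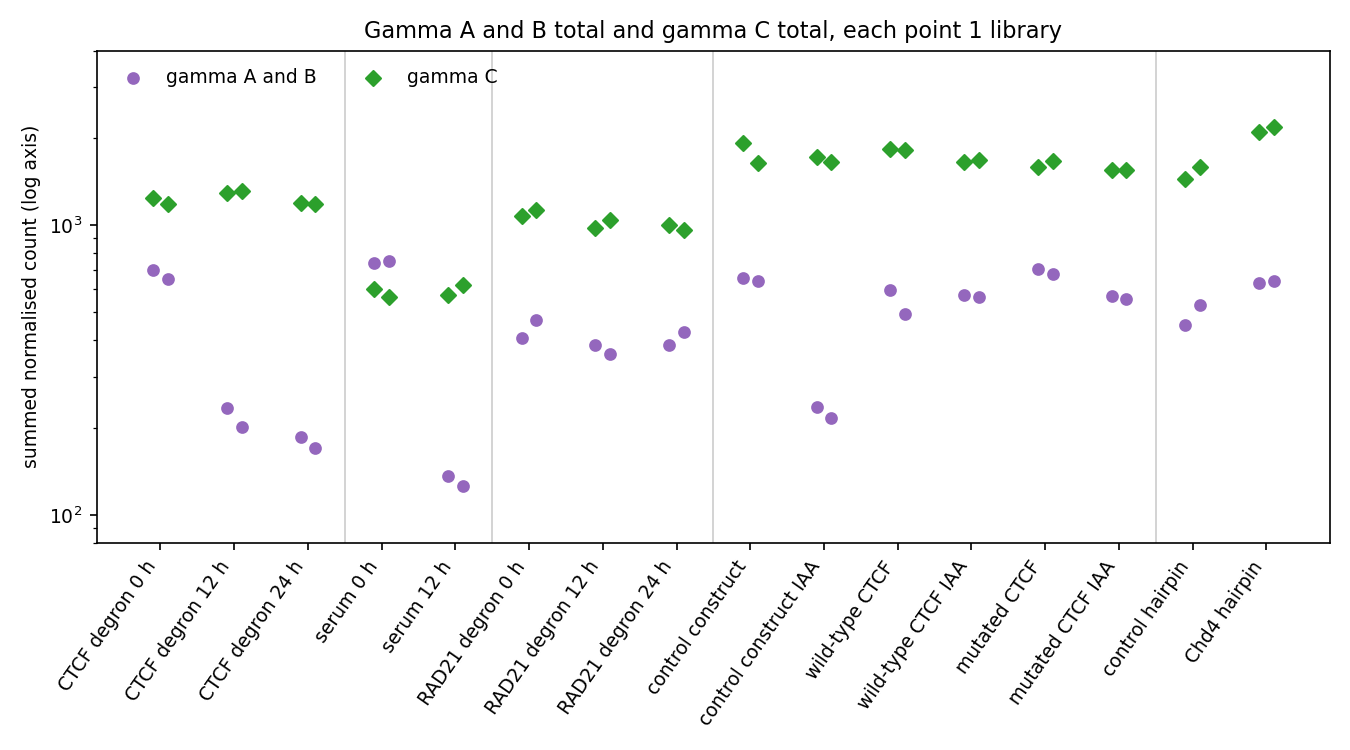
Summed normalised counts of the listed gamma A and B genes (circles) and of the 3 gamma C genes (diamonds) in each of the 32 libraries, on a log axis, by group; grey lines separate the tables, which were normalised on their own. The A and B totals drop with IAA in CTCF AID cells, in serum and with the control construct, and the C totals lie between 94.8% and 107.3% of the untreated mean in those groups.

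The totals over the array followed these single genes. The summed A and B level was 702.3 and 651.7 at 0 h in CTCF AID cells, 233.7 and 200.8 at 12 h and 185.3 and 170.6 at 24 h, that is 32.1% and 26.3% of the untreated mean. The summed C level was 1236.6 and 1184.4, then 1286.9 and 1311.6, then 1190.2 and 1183.5. The A and B share of the gamma total went from 35.9% to 14.3% ± 1.48 and 13.0% ± 0.617 (SD, n = 2).

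In serum the A and B total was 738.4 and 752.9 before and 136.5 and 125.7 after IAA, 17.6% of the untreated mean, and its share of the gamma total went from 56.1% to 18% ± 1.65. In control construct cells it was 657.8 and 642.7 before and 235 and 215.9 after, 34.7%. With wild-type CTCF it was 595 and 493.3 before and 575.6 and 564.3 after, and with mutated CTCF 703.3 and 676.2 and then 569 and 557.1, 81.6%. The total with mutated CTCF was therefore lower in both IAA libraries, and that with wild-type CTCF lay within its untreated range.

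RAD21 AID cells had A and B totals of 407.3 and 470.3 at 0 h, 385.5 and 358.9 at 12 h and 387 and 427.1 at 24 h, so that 12 h lay below both untreated libraries and 24 h overlapped them. With the Chd4 hairpin the C total rose from 1438.1 and 1593.4 to 2104.5 and 2176.3 (141.2%), and the A and B total from 452.1 and 529.5 to 629.4 and 639.1 (129.2%). No test was made on totals.

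Among genes around the arrays, of which 17 were tested in CTCF AID cells, 2 were higher and none was lower at 12 h. Diaph1, an actin-nucleating formin gene downstream of the gamma array, rose from 2509 and 2480 to 3371 and 3316 (log2 difference 0.42, adjusted p = 0.00341, limma). In serum 2 of 21 tested neighbours were higher and 1 was lower, in control construct cells 1 of 19 was higher and 5 were lower, in RAD21 AID cells 1 of 20 was higher and none lower at 12 h, and with the Chd4 hairpin 6 of 20 were higher and 8 lower. The shares of all tested genes called were 17.8%, 17.0%, 25.3%, 13.0% and 67.4% in these 5 comparisons, so the neighbours' count with the hairpin lay near that of all genes. At 24 h in CTCF AID cells, 1 of 17 tested neighbours was higher and 3 were lower. There 22.5% of all tested genes were called.

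Of 17 genes that act on the arrays or on cohesin, 9 were higher and 1 was lower at 12 h in CTCF AID cells. They were led by the DNA methyltransferase genes Dnmt3a (log2 difference -0.96, adjusted p = 0.00629) and Dnmt3b (0.71, adjusted p = 0.00100, limma). In serum 5 were higher and 3 lower, in control construct cells 8 were higher and none lower, and in RAD21 AID cells 5 were higher and 2 lower at 12 h. Of all tested genes, 17.8% were called at 12 h in CTCF AID cells, 17.0% in serum, 25.3% in control construct cells and 13.0% in RAD21 AID cells at 12 h. With the Chd4 hairpin 3 of the 17 were higher and 12 lower. In that comparison 67.4% of all tested genes were called (33.5% higher and 33.8% lower). Smchd1, a chromosomal protein known to repress the arrays in other cells, fell there from 4833 and 4481 to 1937 and 1886 (-1.28 ± 0.055 (SE), adjusted p = 5.84e-06, limma). Among 12 protocadherin genes outside the arrays, 1 to 4 a table were tested. None was called at 12 h in CTCF AID or RAD21 AID cells, 2 were higher in serum (Pcdh17 and Pcdh1), 1 was lower in control construct cells (Pcdh1), and 2 were higher with the Chd4 hairpin (Pcdh8 and Pcdh1).

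The libraries carried the markers of stem cells: all 8 (among them Pou5f1, Sox2 and Nanog) were listed in every table. Their summed level in CTCF AID cells was 96794 to 97063 at 0 h and 94741 to 94959 at 12 h, and with the hairpins it was 123242 to 124942 for the control and 77462 to 78745 for Chd4. By gene, 2 of the 8 were higher and 2 lower at 12 h in CTCF AID cells, and 6 were lower and none higher with the Chd4 hairpin. The shares of all tested genes called were 17.8% in the first comparison and 67.4% in the second. With the hairpin, 33.5% of all tested genes were higher and 33.8% lower. Neural markers, of which 7 of 10 were listed in CTCF AID cells, summed to 5447 to 5484 at 0 h and to 7009 to 7443 at 12 h (3 higher, none lower). With the Chd4 hairpin the neural sum was 4848 to 4990 against 9002 to 9060 (2 higher and 4 lower of 8 tested). Primitive endoderm markers summed to 1663 to 1730 there (7 of 8 listed), against 190.3 to 289.2 with the control hairpin. Of the 7 endoderm markers, 5 were higher, led by Dab2 (log2 difference 7.79), and 2 were lower. Fibroblast markers summed to 569.6 to 659.4 with the Chd4 hairpin (4 of 7 listed) against 239.5 to 316, with 3 higher of 3 tested. At 12 h of IAA in CTCF AID cells the endoderm sum was 129.9 to 138.5 against 130.8 to 130.9, and the fibroblast sum 33.7 to 37.6 against 34.8 to 35.5. In serum 6 of 8 stem cell markers were lower after IAA, and their sum went from between 67832 and 68030 to between 57280 and 58213. There the neural sum was 7909 to 7965 and then 7746 to 7837, the endoderm sum 805.4 to 874.2 and then 989.7 to 1020.3, and the fibroblast sum 618.2 to 654.7 and then 674.7 to 702.2. In control construct cells 4 of 8 stem cell markers were lower and 1 was higher after IAA, the neural sum went from between 7482 and 8250 to between 8856 and 8881, and the endoderm sum from between 85.1 and 96.4 to between 158.6 and 175.7. In RAD21 AID cells 4 of 8 stem cell markers were lower and 1 was higher at 12 h, and the endoderm sum went from between 189.6 and 198.9 to between 328.3 and 419.6. Of all tested genes, 17.0% were called in serum, 25.3% in control construct cells and 13.0% in RAD21 AID cells at 12 h. The part of these cell type markers in the members' changes was not tested.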

How the data were processed

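Poly(A)-selected RNA from E14 cells was sequenced as 32 libraries, 2 in each of 16 groups, and 5 tables of values per gene were deposited. The deposited values are taken as the authors' normalised counts, a signal with no unit (the total per library, 15364584 to 19642332, sets the precision, and raw depth is not known). The submitters' processing notes name Trim Galore, Bowtie2, STAR, RSEM, DESeq2 and mm10. Their roles, versions, annotation and strand setting are not given in the sources used here. Whole reads could not be recovered from the values, so no count test was run. A broken last line was dropped from the table of CTCF AID cells.

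Values were joined to GENCODE M21 (GRCm38) by gene ID (99.91% to 100.0% matched). limma 3.58.1 (R 4.3.3, with a mean-variance trend) was fitted to log2(value + 1) of every gene with a mean of at least 10, with all groups of a table in 1 fit and Benjamini-Hochberg adjustment over all genes, and checked on simulated data. Members, gene lists (stem cell, neural, primitive endoderm and fibroblast markers, protocadherins outside the arrays, regulators, neighbours) and comparisons were chosen with earlier results of these data known. Members with a mean of at least 20 in any group were named with their values, and the other 5 only where a count needed them. From each list at most 3 called genes were to be named. Alternatives were no minimum, pseudocount 5, trimmed-mean scaling, only the groups compared, a replicate block, groups by treatment label, and leaving out each library.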

Additional observations from a re-analysis of the deposited data

Results flagged for a closer look

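The response to IAA differed between construct lines by a test of the difference itself (limma, Benjamini-Hochberg adjusted over all genes). For wild-type CTCF against the control construct, the log2 difference in response was 2.72 in Pcdhga11, 1.96 in Pcdhgb8, 2.46 in Pcdhga1, 4.25 in Pcdhga2, 4.26 in Pcdhga7 and 2.76 in Pcdhga3. For mutated CTCF against the control construct, it was 1.96 in Pcdhga1 and 4.27 in Pcdhga2. Pcdhga7 and Pcdhga3 had adjusted p-values of 0.0497 and 0.0492, just inside the threshold, and lost the call in each of the 8 fits that left out 1 library. The other flagged differences also lost their call in some of these fits. Pcdhga11 and Pcdhgb8 were near the threshold too (adjusted p = 0.048 and 0.047 for wild-type CTCF, limma). In the control construct libraries with IAA, Pcdhga7 is listed at 0 in both and Pcdhga2 at 0.921 and 0, so the size of their differences depends on the added 1. With pseudocount 5, only Pcdhga1 and Pcdhgb8 were called for wild-type CTCF and no member was for mutated CTCF. These values rest on the titles of the 4 libraries whose treatment label disagrees.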

How the results depend on the processing

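Trimmed-mean scaling changed no call of a member. With no minimum mean, 13 members were called in CTCF AID cells at 12 h and 13 at 24 h, as low members were added to the test. The same setting gave 4 in the test of wild-type CTCF against control, without Pcdhga3 and Pcdhga7, and lost Pcdhga3 with the Chd4 hairpin. When each fit held only the libraries of its comparison, 6 were called for IAA in control construct cells, 0 with mutated CTCF, and 3 and 1 in the tests of wild-type and mutated CTCF against control. Pseudocount 5 left 2 and 0 in those tests. The replicate numbers did not pair the libraries (correlations of -0.063 to 0.102 over 23 pairs of groups). With a replicate block, 1 member was called for IAA with mutated CTCF, and 3 and 1 in the tests of wild-type and mutated CTCF against control. The cause of these changes was not tested. Leaving out 1 library at a time gave 0 to 3 calls in CTCF AID cells at 12 h, 1 to 8 at 24 h, 10 to 11 in serum, 2 to 10 with the Chd4 hairpin, 8 to 10 for IAA in control construct cells, 0 to 1 with mutated CTCF, and 0 to 4 and 0 to 2 in the tests of wild-type and mutated CTCF against control. These fits have fewer libraries. With groups by treatment label, no member was called for wild-type CTCF against control without IAA. For single members, 1127 of the other values kept their side of the threshold, 24 lost it, 2 gained it and 5 uncalled values changed sign. With 1 library left out, 801 kept it, 109 lost it, 10 gained it and 98 uncalled values changed sign. No called difference changed sign in any of these settings.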
